A study of Mus musculus with 15 samples.

Results

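The genes described here code for the enzymes that turn arachidonic acid into prostaglandins and leukotrienes and for the enzyme that ends prostaglandin signals. They were taken by gene name from the liver and lung count tables, and the 10 members, Ptgs1, Ptgs2, Ptges, Ptgis, Tbxas1, Alox5, Alox5ap, Alox15, Ltc4s and Hpgd, were all found among the 54532 genes listed. RNA was sequenced from male wild type C57BL/6J mice, an inbred laboratory strain, that received a control diet (CS) or the same kind of diet with 2% phytosterols (PS), which are plant sterols that resemble cholesterol. Lungs came from 3 CS and 3 PS mice, and livers from 4 CS and 5 PS mice that included these 6 animals. The labels give an age of 28 weeks for every mouse, whereas the study describes a period of feeding of that length. Each library was made from poly-A RNA of a piece of whole frozen tissue, so fewer cells of a type and less RNA per cell cannot be told apart in any value below.

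Arachidonic acid is freed from membranes by phospholipases A2 and is then oxidised along separate branches. The cyclooxygenases Ptgs1 and Ptgs2 make prostaglandin H2, from which Ptges makes prostaglandin E2, Ptgis makes prostacyclin and Tbxas1 makes thromboxane A2. In the leukotriene branch Alox5, presented with its substrate by the membrane protein Alox5ap, makes leukotriene A4, and Ltc4s joins it to glutathione to give the cysteinyl leukotriene C4. Alox15 is a further lipoxygenase, and Hpgd oxidises prostaglandins to inactive products, a step for which the lung is well known.

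Total counts ran from 17934930 to 19396057 per lung library and from 14410117 to 17625179 per liver library. Hepatocyte markers stood at 79530 to 119800 CPM (counts scaled by library size) in the summed list of 7 genes in the livers, against 2.06 to 109.2 CPM in the lungs. The alveolar type II markers stood at 19420 to 34070 CPM in the lungs and 11.6 to 39.6 CPM in the livers, so the libraries matched their tissue labels. No pair of libraries from the same group was as alike as counting noise alone would leave it.

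The members lie on 6 chromosomes of GRCm38 (mm10), and the spans in the count tables equal those of GENCODE release M21. Ptgs1 (chr2:36230426-36252272, plus strand), Ptges (chr2:30889471-30929863, minus) and Ptgis (chr2:167191805-167240604, minus) share chromosome 2, and Ptgs2 is at chr1:150100031-150108227 (plus). Tbxas1 (chr6:38875404-39084585, plus) and Alox5 (chr6:116410077-116461178, minus) are on chromosome 6. Alox15 (chr11:70344152-70352031, minus) and Ltc4s (chr11:50236461-50238616, minus) are on chromosome 11. Alox5ap is at chr5:149264767-149288153 (plus) and Hpgd at chr8:56294585-56321043 (plus). No transcript of another gene matched a member at 95% identity over at least 200 bases. Exons of Ltc4s overlap those of the antisense gene Gm26542 by 268 bases, those of Alox5ap overlap Gm19719 by 189 bases, those of Ptgis overlap 1110018N20Rik by 156 bases, those of Ptgs1 overlap Gm43621 by 148 bases and those of Tbxas1 overlap Gm42962 by 144 bases. These partners lie on the other strand, and because a use of strand in the counting is not stated, reads in the shared bases cannot be assigned to either gene.

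RefSeq promoter windows, 250 bases before to 50 bases after the annotated start in GRCm38.p6, were held for 7 of the 10 members. Those of 4 members are printed because the report turns on them: the cyclooxygenase pair, whose tissue levels are set side by side, Ltc4s, which had the largest diet difference relative to its error in the lung, and Hpgd, the most abundant member. Capitals mark any match, on either strand, to the TATA box letters TATAAA, the core letters of the cAMP response element, ACGTCA, the E-box letters CACGTG or the GC box letters GGGCGG.
Ptgs1, chr2:36230176-36230475, plus strand: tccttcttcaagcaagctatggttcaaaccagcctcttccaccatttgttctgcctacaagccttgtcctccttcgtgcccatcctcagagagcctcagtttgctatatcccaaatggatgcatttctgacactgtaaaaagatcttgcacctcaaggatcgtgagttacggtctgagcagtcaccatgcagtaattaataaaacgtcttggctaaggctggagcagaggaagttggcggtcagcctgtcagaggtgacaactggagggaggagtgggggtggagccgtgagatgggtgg
Ptgs2, chr1:150099781-150100080, plus strand: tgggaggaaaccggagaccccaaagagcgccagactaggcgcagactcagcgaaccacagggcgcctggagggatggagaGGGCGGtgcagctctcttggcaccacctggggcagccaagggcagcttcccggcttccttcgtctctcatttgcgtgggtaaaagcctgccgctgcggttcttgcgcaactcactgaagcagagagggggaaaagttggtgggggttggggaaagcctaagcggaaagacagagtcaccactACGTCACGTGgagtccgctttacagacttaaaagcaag
Ltc4s, chr11:50238483-50238782, minus strand: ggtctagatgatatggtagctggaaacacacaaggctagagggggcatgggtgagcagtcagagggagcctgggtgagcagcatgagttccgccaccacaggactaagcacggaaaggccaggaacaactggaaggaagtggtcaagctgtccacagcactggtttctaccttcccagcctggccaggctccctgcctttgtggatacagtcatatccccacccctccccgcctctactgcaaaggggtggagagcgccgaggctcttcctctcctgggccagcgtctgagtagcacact
Hpgd, chr8:56294302-56294601, plus strand: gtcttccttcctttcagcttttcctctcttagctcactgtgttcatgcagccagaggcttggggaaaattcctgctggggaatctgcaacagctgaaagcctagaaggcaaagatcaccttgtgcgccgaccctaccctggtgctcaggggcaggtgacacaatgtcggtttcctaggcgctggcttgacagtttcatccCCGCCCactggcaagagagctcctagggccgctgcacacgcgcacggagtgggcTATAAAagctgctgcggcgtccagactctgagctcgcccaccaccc
The windows of Ptgs1 and Ltc4s held none of these letters. That of Ptgs2 held a GC box from base -170 and, after the start, the cAMP response core from base 13 and an E-box from base 17, which overlap by 2 bases. The Hpgd window held a GC box on the other strand from base -50 and a TATA box from base 5 after the RefSeq start. Among 32851 promoter windows of this length, the GC box was in 35.7%, the TATA box in 13.6%, the cAMP response core in 7.51% and the E-box in 7.15%. These matches describe the letters only.

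The members were first compared per length, as RPKM, which is the count of a gene scaled by its length and by library size over all 15 libraries. In CS lungs the order of mean RPKM levels was Hpgd (365.5 ± 49.3, SD), Ptgis (20.8 ± 4.68), Ptgs1 (12.6 ± 3.0), Alox5ap (8.20 ± 1.82), Ptges (3.90 ± 0.757), Ptgs2 (2.72 ± 0.987), Ltc4s (1.90 ± 0.257), Alox5 (0.883 ± 0.0678), Tbxas1 (0.397 ± 0.0590) and Alox15 (0.148 ± 0.110). Among neighbours in this order, the libraries of Ptges and Ptgs2 overlapped, as did those of Ptgs2 and Ltc4s, and the other neighbours did not. In PS lungs Hpgd (331.2 ± 91.6), Ptgis (20.7 ± 3.42), Ptgs1 (14.99 ± 0.130) and Alox5ap (8.996 ± 2.69) kept these places. Ltc4s came next with an RPKM of 3.72 ± 1.63, level with Ptges at 3.25 ± 0.186, the ranges of the 2 genes overlapping. The enzyme that inactivates prostaglandins was thus the most abundant of these transcripts in the lung, and prostacyclin synthase was the most abundant of the 3 terminal prostanoid synthases among the members in both diets.

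The liver showed the same leader at a lower level. Hpgd stood at an RPKM of 50.8 ± 15.6 in the 4 CS livers and 99.2 ± 32.1 in the 5 PS livers. Ptgs1 followed with 2.86 ± 0.785 and 1.79 ± 0.650, then Alox5ap with 1.37 ± 0.358 and 1.10 ± 0.521 and Ptgis with 0.727 ± 0.287 and 0.397 ± 0.148. The libraries of Alox5ap and Ptgis overlapped in both diets, and those of Ptgs1 and Alox5ap overlapped in PS livers only. Tbxas1 stood at an RPKM of 0.355 ± 0.211 and 0.173 ± 0.0605, from 142 and 84 counts, and overlapped Ptgis in both diets. The 5 remaining members were near the counting limit. Ptgs2 had 13 counts over the 4 CS livers and 4 over the 5 PS livers, Alox5 had 6 and 6, Alox15 had 2 and 13, Ltc4s had 17 and 8, and Ptges had 14 and 30.

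**Figure D1:**
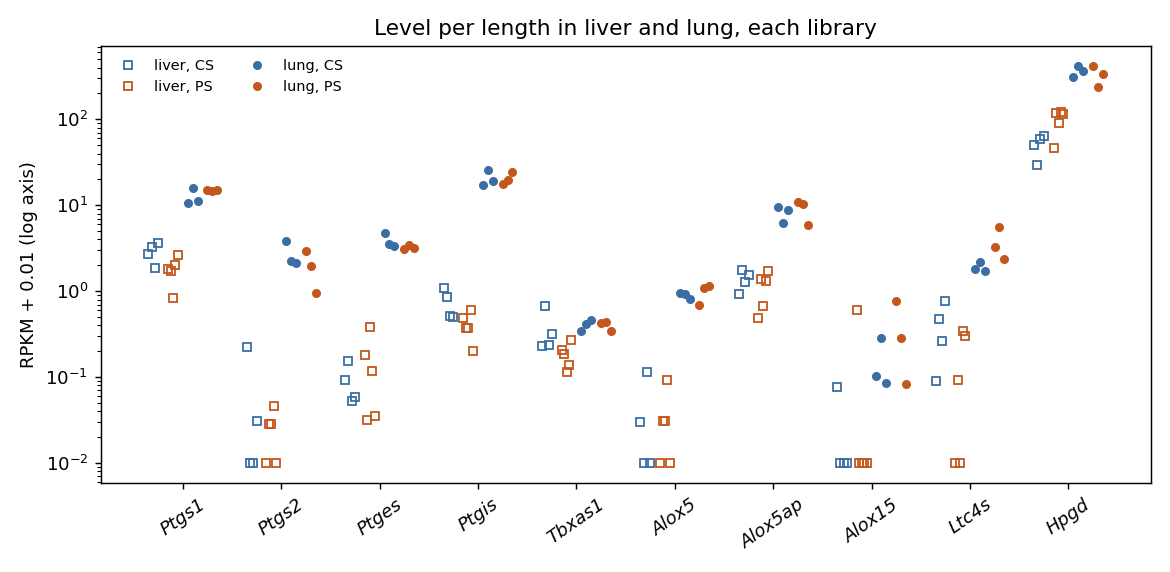
Level per length of the 10 members in every library, as RPKM plus 0.01 on a log axis, with open squares for livers, filled circles for lungs, blue for CS and orange for PS. Hpgd is highest in both tissues, Tbxas1 is alike in the tissues of CS mice, and Ptgs2, Alox5 and Alox15 reach 0 (drawn at 0.01) in several livers.

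Lung was then set against liver in a joint edgeR quasi-likelihood fit over 17696 genes, with calls at an adjusted p under 0.05. Of the 5 members that also passed the low-count filter in the livers alone, Ptgs1, Ptgis, Alox5ap and Hpgd were called higher in the lung in both diets, and Tbxas1 in PS mice. Ptgs2, Ptges, Alox5 and Ltc4s were also called higher in both diets, but they and Alox15 entered the joint fit through their lung counts, so a difference was built into their entry and their calls are given as a description. Of all genes tested, 37.0% were higher and 30.0% lower in the lung of CS mice, and 38.0% were higher and 30.7% lower in PS mice. Of the cyclooxygenases, Ptgs1 had a log2 difference, lung minus liver, of 2.14 in CS mice (SE 0.29, adjusted p = 7.56e-06), a fold of 4.42, and of 3.07 in PS mice. The log2 difference of Ptgs2 was 5.44 in CS mice and 6.81 in PS mice. The CS value of Ptgs2 rests on few liver counts, 12 of the 13 being in replicate 1, and it was 8.46 without that library, with 1 count left in the CS livers. The PS value of Ptgs2 rests on 4 counts over the 5 livers, and it was 7.97 with mouse as a block. The difference between the 2 genes was not tested.

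Of the terminal synthases, Ptgis was higher in the lung by a log2 difference of 4.83 in CS mice and 5.69 in PS mice. Ptges, with few liver counts, had log2 differences of 5.59 and 4.53 (5.35 without PS liver replicate 3). Tbxas1 had a log2 difference of 0.16 in CS mice (SE 0.41, 95% interval -0.70 to 1.02, adjusted p = 0.739). In PS mice Tbxas1 was higher in the lung by 1.18 (SE 0.39, adjusted p = 0.0136), a call that was lost with mouse as a block, where the value was 1.27 with an adjusted p of 0.0769.

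In the leukotriene branch Alox5ap passed the test, with log2 lung minus liver differences of 2.59 in CS mice and 3.01 in PS mice. The values of the genes with few liver counts were 4.72 and 5.13 for Alox5 and 2.30 and 4.64 for Ltc4s. With single libraries left out, Alox5 was 6.66 in CS mice without CS liver replicate 3, with 1 liver count left, and 6.25 in PS mice without PS liver replicate 4, with 2 left, and Ltc4s was 5.23 in PS mice without PS liver replicate 4. Alox15 was at 0 in 3 of 4 CS livers and 4 of 5 PS livers and had 6 to 55 counts in the lungs. Its log2 tissue difference was 2.88 in CS mice and 1.76 in PS mice, neither past the test. The single PS liver with Alox15 counts was replicate 1, with 13. Without it the other PS livers were all at 0, so no fold is given. The adjusted p of 0.00181 in edgeR's test then is a description only, as Alox15 entered the fit through its lung counts. Hpgd was higher in the lung by a log2 difference of 2.85 in CS mice and 1.74 in PS mice. Scaling by DESeq2's size factors in place of edgeR's moved the median of all genes by 0.127 in CS mice and 0.162 in PS mice, and no member's tissue direction turned with it.

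In the lung, none of the 10 members passed the diet comparison, the question of whether the sterol-rich diet altered transcripts of this pathway. At an adjusted p under 0.05, 0 of 10 members were called against 9.22% of all 16717 genes tested. At an unadjusted p under 0.05, 1 of 10 was past the threshold against 30.1% of all genes, and the libraries of the diets did not overlap for 1 of 10 against 36.0% of all genes. That member was Ltc4s in both counts. DESeq2's Wald test, which called 3090 genes in the lung, called Ltc4s as well and no other member. The median log2 fold change of the members was 0.10 and the median of its size 0.21, beside 0.01 and 0.35 over all genes tested.

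**Figure D2:**
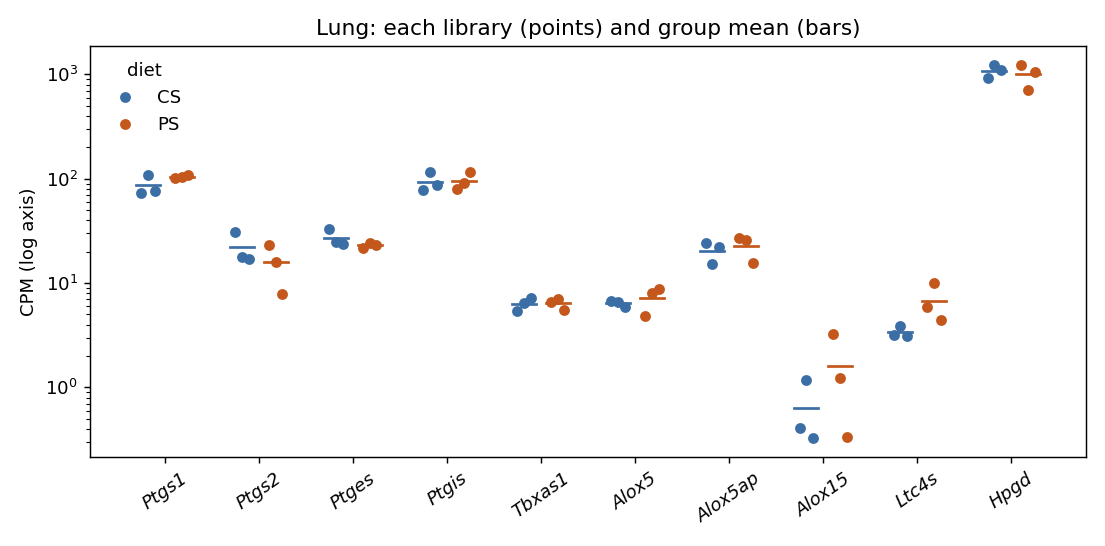
CPM of the 10 members in each of the 6 lung libraries on a log axis, with CS in blue, PS in orange and a bar at each group mean. The Ltc4s points of the PS lungs (4.41 to 10.1 CPM) lie above those of the CS lungs (3.09 to 3.91 CPM), and the points of the other 9 members overlap between the diets.

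Neither cyclooxygenase passed the test in the lung. Ptgs1, the form that most tissues make at a steady level, stood at 72.6, 109.5 and 77.0 CPM in the CS lungs and at 102.8, 103.4 and 108.6 CPM in the PS lungs. The PS lungs were close together and lay inside the range of the CS lungs, CS replicate 2 being the highest of all. The log2 fold change was 0.28 (SE 0.17, 95% interval -0.11 to 0.68, adjusted p = 0.307), and it was 0.14 without CS replicate 1 and 0.47 without CS replicate 2. Ptgs2, the form that is induced by inflammatory signals, stood at 31.1, 17.8 and 17.0 CPM in the CS lungs and 23.4, 16.0 and 7.95 CPM in the PS lungs. CS replicate 1 was the highest and PS replicate 3 the lowest, with the rest of the libraries mixed. The log2 fold change of Ptgs2 was -0.48 (SE 0.38, 95% interval -1.34 to 0.39, adjusted p = 0.424), and it was -0.16 without PS replicate 3.

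Of the terminal synthases, Ptges stood at 33.0, 24.5 and 23.5 CPM in CS lungs and 21.6, 24.4 and 23.0 CPM in PS lungs. Its log2 fold change was -0.23 (SE 0.17, 95% interval -0.62 to 0.16, adjusted p = 0.392), CS replicate 1 again being the highest library, and it was -0.09 without that library. Ptgis, which makes the vessel-widening prostacyclin, stood at 77.5, 117.3 and 86.8 CPM in CS lungs and 80.1, 91.7 and 116.5 CPM in PS lungs. The group means of Ptgis, 93.9 ± 20.8 and 96.1 ± 18.6 CPM (SD), differed by less than the spread within either group, with a log2 fold change of 0.03 (95% interval -0.42 to 0.49). Tbxas1, which makes the platelet-activating thromboxane, had group means of 6.35 ± 0.960 and 6.39 ± 0.746 CPM and a log2 fold change of 0.01 (95% interval -0.52 to 0.54). For Ptgis and Tbxas1 the direction turned when single libraries were left out.

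Ltc4s had the clearest diet difference of the members in the lung. Its counts were 63, 76 and 57 in the CS lungs and 99, 180 and 80 in the PS lungs, which is 3.18, 3.91 and 3.09 CPM against 5.86, 10.1 and 4.41 CPM. All PS lungs were above all CS lungs, and PS replicate 2 was the highest. The log2 fold change was 1.00 (SE 0.34, 95% interval 0.23 to 1.76), with an unadjusted p of 0.0163 and an adjusted p of 0.0888 in edgeR's quasi-likelihood test, so the member did not pass. It ranked 3073 of 16717 genes by p. The value was 0.60 with an adjusted p of 0.289 without PS replicate 2 and 1.23 with an adjusted p of 0.0414 without PS replicate 3, and DESeq2 gave 1.00 with an adjusted p of 0.0430. With the GC content trend removed it was 0.76 with an adjusted p of 0.179, and 0 of 10 members then had an unadjusted p under 0.05.

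The cells known for Ltc4s include mast cells and eosinophils. The summed eosinophil list of 6 markers stood at 31.0, 26.7 and 33.0 CPM in the CS lungs and 43.7, 68.5 and 38.2 CPM in the PS lungs, PS replicate 2 being the highest. That library was also the highest of the 6 in the summed lists for alveolar macrophages (623.5 CPM), monocytes and tissue macrophages (441 CPM), fibroblasts (1763 CPM), mesothelium (469.7 CPM) and plasma cells (1829 CPM). Of the 4 tested eosinophil markers 3 were above 0 and 1 below. Prg2, a granule protein, rose from a mean of 6.04 to 14.8 CPM (log2 fold change 1.29, adjusted p = 0.0297) and was the only one called. Ear1, which made up most of the sum, stood at 18.3 and 26.6 CPM (log2 fold change 0.54, adjusted p = 0.338), Siglecf at 5.10 and 8.17 CPM (0.68, adjusted p = 0.142) and the receptor Il5ra at 0.709 and 0.319 CPM (-1.13, adjusted p = 0.149). The defining markers Epx (0 and 0.0556 CPM) and Ccr3 (0.139 and 0.228 CPM) were near 0. The summed mast cell list of 10 markers stood at 313.5, 386.4 and 339.4 CPM in CS lungs and 477.6, 491.3 and 598.4 CPM in PS lungs, PS replicate 3 being the highest. It was carried by Kit (140 and 182 CPM, adjusted p = 0.0945) and Gata2, which other lung cells also express. Gata2 rose from 200 to 334 CPM (log2 fold change 0.74, adjusted p = 0.0447), the 1 called gene of the 4 tested in this list, 3 of which were above 0. The mast cell protease Cpa3 stood at 3.30 and 4.51 CPM (adjusted p = 0.37), the mast cell chymase Cma1 at 1.35 and 0.711 CPM (log2 fold change -0.91, adjusted p = 0.223), and Tpsab1, Tpsb2, Mcpt4 and Mcpt8 were under 1 CPM. Of the 23 cell type lists summed in the lung, those for alveolar type II cells (19420 to 20240 CPM in CS and 21660 to 34070 CPM in PS lungs) and plasma cells (825.2 to 1410 and 1480 to 1829 CPM) were also higher in PS lungs without overlap. The type II sum was carried by Sftpc (13300 and 23400 CPM, adjusted p = 0.0764), and 4 of the 7 markers were below 0. The plasma cell sum was carried by Jchain (916 and 1450 CPM, adjusted p = 0.121), and 1 of the 4 markers was below 0. In both lists 0 markers were called. The part of any of these cells in the Ltc4s values was not tested. The antisense partner Gm26542 had 11, 22 and 26 counts in the CS lungs and 26, 41 and 34 in the PS lungs, and how far shared bases entered the Ltc4s counts was not tested.

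The enzymes upstream of Ltc4s did not pass either threshold. Alox5 stood at 6.77, 6.53 and 5.86 CPM in CS lungs and 4.85, 8.04 and 8.77 CPM in PS lungs, with a log2 fold change of 0.18 (SE 0.27, 95% interval -0.43 to 0.79, adjusted p = 0.689). PS replicate 1 was the lowest of all 6 libraries and the other PS lungs were the highest. Alox5ap stood at 24.1, 15.3 and 22.2 CPM in CS lungs and 27.0, 26.1 and 15.6 CPM in PS lungs, with a log2 fold change of 0.16 (SE 0.25, 95% interval -0.41 to 0.73, adjusted p = 0.709). Whether the change of Ltc4s differed from that of either gene was not tested. Alox15 had 8, 23 and 6 counts in CS lungs and 55, 22 and 6 in PS lungs. One PS library set its log2 fold change of 1.31 (SE 0.79, 95% interval -0.48 to 3.11, adjusted p = 0.294), which was 0.28 without PS replicate 1.

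Hpgd was deeply covered, with 18436, 23726 and 20232 counts in CS lungs and 20991, 12825 and 19037 in PS lungs. At this depth counting error is small, yet PS replicate 2 lay well below the rest, at 715.9 CPM against 931.8 to 1242 CPM. The log2 fold change was -0.11 (SE 0.23, 95% interval -0.63 to 0.41, adjusted p = 0.780), and it was 0.08 without that library. PS replicate 2 was also the lowest lung in the summed lists for club and goblet cells (36410 CPM), ciliated cells (459.4 CPM), endothelium (3975 CPM) and heart muscle (34.4 CPM), and their part in its Hpgd value was not tested.

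**Figure D3:**
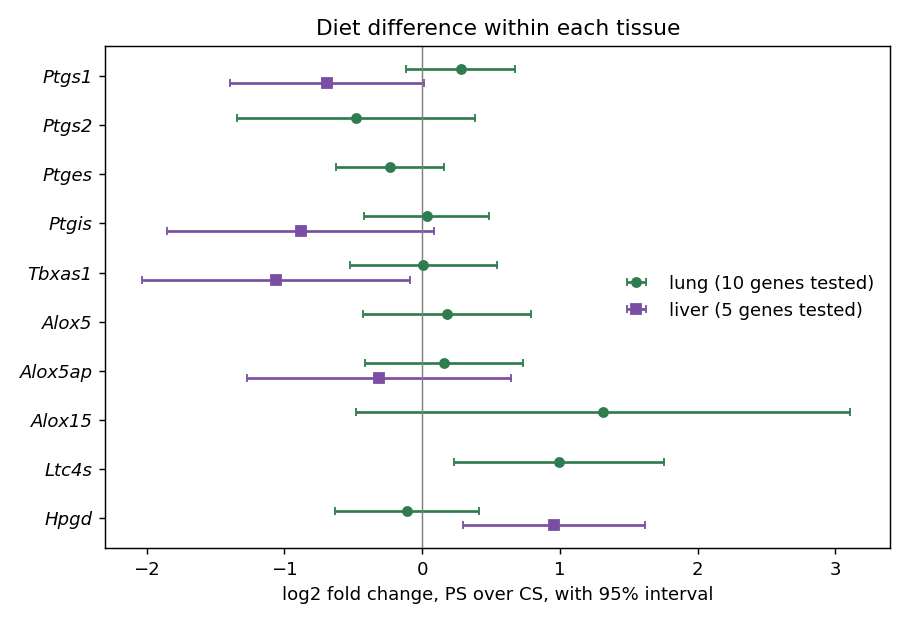
Log2 fold change, PS over CS, of each member in the lung (green circles) and of the 5 members tested in the liver (purple squares), with 95% intervals from edgeR that are not adjusted for the number of genes. In the lung only the interval of Ltc4s (0.23 to 1.76) leaves out 0, and in the liver Tbxas1 lies below 0 and Hpgd above it, but no adjusted p of a member is under 0.05.

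In the liver 5 of the 10 members had enough counts to be tested, namely Ptgs1, Ptgis, Tbxas1, Alox5ap and Hpgd. None was called at an adjusted p under 0.05, where 1 gene of 13195, or 0.00758%, was called in all. At an unadjusted p under 0.05, 2 of the 5 passed against 7.55% of all genes, and no member's diets were without overlap, against 3.63% of all genes. Hpgd had CPM values of 57.3, 34.9, 67.7 and 72.8 in the CS livers and 53.9, 135.3, 104.1, 138.7 and 132.9 in the PS livers. Every PS liver except replicate 1, which lay among the CS livers, was above every CS liver. The log2 fold change was 0.96 (SE 0.30, 95% interval 0.30 to 1.62, unadjusted p = 0.00857, adjusted p = 0.417), a mean of 58.2 ± 16.8 against 113 ± 35.8 CPM.

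The other tested members leaned the opposite way in the liver without passing. Tbxas1 had 25, 64, 24 and 29 counts in CS livers and 16, 19, 11, 14 and 24 in PS livers, with a log2 fold change of -1.06 (SE 0.44, unadjusted p = 0.0350, adjusted p = 0.616). CS replicate 2 held the 64 counts, and without it the value was -0.54. Ptgs1 stood at 7.12, 8.89, 4.88 and 9.54 CPM in CS livers and 4.79, 4.49, 2.16, 5.17 and 6.90 CPM in PS livers, with a log2 fold change of -0.69 (SE 0.32, adjusted p = 0.667). All CS livers but replicate 3 lay above all PS livers. Ptgis had 13 to 34 counts in CS livers and 5 to 18 in PS livers (log2 fold change -0.88, SE 0.44, adjusted p = 0.707), and Alox5ap had 16 to 26 and 6 to 25 counts (-0.32, SE 0.44, adjusted p = 0.944).

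Markers of the liver's non-parenchymal cells (Kupffer, endothelial and stellate cells), which are known to make several of these enzymes, had log2 fold changes below 0 in the liver, as 7116 of all 13195 genes tested did. All 5 Kupffer cell markers had a log2 fold change below 0, with 0 called, and their sum ranged from 159.5 to 226 CPM in CS livers and 51.0 to 178.8 CPM in PS livers. All 9 endothelial markers were below 0, with 0 called, at 74.9 to 117.9 and 44.1 to 85.5 CPM in sum. The 5 stellate cell markers were below 0 too, with 0 called, and their sums did not overlap, at 45.5 to 61.5 CPM in CS livers and 27.5 to 41.9 CPM in PS livers. Of the other lists with at least 3 tested markers, all 5 T cell, all 3 smooth muscle and all 3 alveolar type II markers were below 0 and all 3 neutrophil markers above 0. The summed fat cell list, with 1 tested marker, was lower in PS livers without overlap. It was carried by that marker, Cidec (37 and 9.75 CPM, adjusted p = 0.29). The part of these cells in the values of Tbxas1, Ptgs1 and Ptgis was not tested. For Hpgd, which hepatocytes could contribute to, the summed hepatocyte markers overlapped between the diets, at 79530 to 111000 CPM and 93970 to 119800 CPM.

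The diet difference in the lung was then set against that in the liver, with the 15 libraries in a joint fit. No member was called at an adjusted p under 0.05, where 0.0226% of 17696 genes were called, and 3 of 10 had an unadjusted p under 0.05, against 10.9% of all genes. As Ptgs2, Ptges, Alox5, Alox15 and Ltc4s, the last being 1 of the 3, entered this fit through their lung counts, that count is a description. Hpgd had a log2 diet difference lower in the lung than in the liver by -1.11 (SE 0.45, adjusted p = 0.411). Ptgs1 had one higher in the lung by 0.93 (SE 0.41, adjusted p = 0.435), and Ltc4s one higher by 2.33 (SE 1.01, 95% interval 0.20 to 4.47, adjusted p = 0.426). The Ltc4s value rests on liver counts of 1, 5, 3 and 8 in CS mice and 0, 1, 0, 4 and 3 in PS mice.

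The rest of the pathway was taken from 8 lists of 72 genes, of which 71 were in the tables, 53 were tested in the lung and 37 in the liver. In the lung 2 rose and 1 fell at an adjusted p under 0.05, which is to be read beside the 9.22% called among all genes, and in the liver 0 of 37 passed. Ptgr2, which reduces prostaglandin metabolites made by the Hpgd step, fell. Its CPM values were 15.7, 23.2 and 19.5 in CS lungs and 6.57, 5.08 and 8.17 in PS lungs, without overlap, for a log2 fold change of -1.56 (SE 0.24, adjusted p = 0.0193). Pla2g6, the calcium-independent phospholipase A2, rose from 13.7, 14.1 and 17.4 to 19.9, 26.6 and 30.0 CPM (log2 fold change 0.76, SE 0.20, adjusted p = 0.0469). Ptges3, a cochaperone also known as a cytosolic prostaglandin E synthase, rose from 166.9, 136.4 and 143.2 to 286.8, 229.4 and 195.8 CPM (log2 fold change 0.67, SE 0.18, adjusted p = 0.0486). The calls depended on single libraries: all 3 were lost without any one of CS replicates 1, 2 and 3 or PS replicate 2, when 0 of the tested pathway genes passed and the calls among all genes went from 1542 to 23, 26, 0 and 9. Their log2 fold changes in those fits were -1.72 to -1.40 for Ptgr2, 0.67 to 0.91 for Pla2g6 and 0.60 to 0.74 for Ptges3. Ptges3 was lost as well without PS replicate 1 (0.51, adjusted p = 0.0601) and Pla2g6 without PS replicate 3 (0.63, adjusted p = 0.0733).

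By list, of 13 tested phospholipases and related lipases 1 rose, of 7 further prostanoid synthases and reductases 1 rose, and of 5 genes of prostaglandin transport and breakdown 1 fell. None of 7 prostanoid receptors, 8 further leukotriene enzymes and exporters, 7 leukotriene and related lipid receptors, 2 other lipoxygenases or 4 epoxygenases and epoxide hydrolases passed. The largest log2 fold changes among the better expressed genes of those lists were -0.53 for the prostaglandin F receptor Ptgfr, 0.64 for Ggt1, which trims leukotriene C4, 0.33 for the formyl peptide receptor Fpr2, -0.25 for Alox12 and -0.93 for the soluble epoxide hydrolase Ephx2 (adjusted p = 0.118). Of the 7 prostanoid receptors 2 had an unadjusted p under 0.05, against 30.1% of all genes tested in the lung. These were the prostaglandin E2 receptors Ptger1 (log2 fold change 1.04, adjusted p = 0.13) and Ptger2 (0.52, adjusted p = 0.159), both higher in PS lungs. Over the 53 tested genes of all lists, 4 higher and 5 lower genes were past that threshold. The 5 lower were Ptgr2, Ephx2, Zadh2 (-0.43, adjusted p = 0.0687), Pla2g4a (-0.69, adjusted p = 0.0923) and Ptges2 (-0.61, adjusted p = 0.127). Lta4h, which turns leukotriene A4 to leukotriene B4 and so competes with Ltc4s for it, had a log2 fold change of -0.04 (95% interval -0.35 to 0.27, adjusted p = 0.871).

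**Figure D4:**
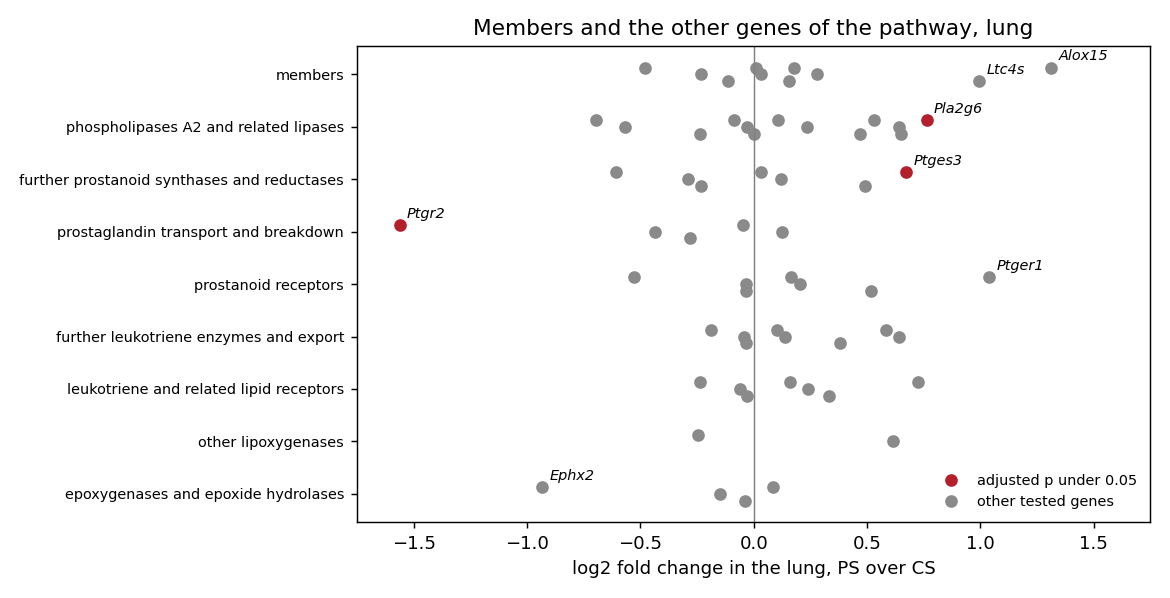
Log2 fold change, PS over CS, in the lung of the 10 members and of the 53 other tested genes of the pathway, 1 row per list, with genes at an adjusted p under 0.05 in red and names for these and for values of at least 0.9 in size. Ptgr2 lies alone at -1.56, Pla2g6 and Ptges3 are the called genes above 0, and no member is red.

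The genes whose lung pattern was most like each member's were sought by Pearson's r of log2 CPM over the 6 lung libraries, among 14240 genes for most members. Tdp1, Rfc3 and Pbxip1 were most like Ltc4s (r = 0.997, 0.992 and 0.988), and Ankef1, Ptn and Arxes2 most like Hpgd (r = 0.994, 0.989 and 0.981). For Ptgs1 these were Zbtb49, Btbd2 and Ppp1r3a, for Ptgs2 Tmem30a, Cmtm6 and Tmx3, for Ptges Maml3, Bach2 and Blk, and for Ptgis Sh2b3, Exoc3l2 and Gm35853. For Tbxas1 they were Pspc1, Uba3 and Hs3st1, for Alox5 Huwe1, Brpf3 and Ranbp10, for Alox5ap AI504432, Dnase1l3 and Dhcr7, and for Alox15 Spats2l, Serf2 and 2210016F16Rik. With only 6 points and so many candidates such values are a description, and the libraries share their depth and tissue makeup. Over all 15 libraries, with tissue means removed, Umad1, Aldh6a1 and Bche were most like Hpgd (r = 0.936, 0.912 and 0.901). Axl, Fam171a1 and Gpx7 were most like Ptgs1, Myzap, Gimap6 and Gpx7 most like Tbxas1, and Cnst, Eme2 and Acta2 most like Ptgis.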

How the data were processed

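Total RNA from frozen liver and lung was made into poly-A libraries and read in pairs. The authors aligned cleaned reads with HISAT2 2.0.5 to mm10 and counted them per gene with featureCounts 1.5.0-p3, and used DESeq2 1.20.0, as the paper and the submitters' processing notes state. The deposited counts are raw and unnormalized, and the deposited FPKM values, which the authors scaled by gene length and library, entered only an alternative. Strand use in counting is not given in the sources used here.

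Counts were tested with edgeR 4.0.16 (R 4.3.3, TMM, default low-count filter, robust quasi-likelihood test, two-sided) within each tissue and jointly, as 4 groups of 15 libraries. The Benjamini-Hochberg adjustment covered every gene tested (threshold 0.05). Intervals of 95% are unadjusted. CPM within a tissue use that tissue's TMM factors. The steps were tested on simulated data. Members, lists and tests were chosen with earlier results of these data known. All 10 members are named, as are other pathway genes with an adjusted p under 0.05 or the largest lung change of their list (mean log2 CPM 1 or more), the 3 genes most like each member (those of Alox5ap over all libraries are not reported here), and genes whose exons overlap a member's. Lta4h, Ptger1, Ptger2, Zadh2, Pla2g4a and Ptges2 were named after their values were seen. Within a tissue each library is from its own mouse. Lungs and livers of 6 mice are paired, and the mouse block fit was run on these. The fits were repeated without a filter, with a minimum of 10 counts per library, with size factors from DESeq2 1.42.0 and with its Wald test, with limma-trend (limma 3.58.1) on log2 FPKM at pseudocounts of 1 and 0.1, with the replicate number as a block, after removing a GC content trend (loess span 0.3) and without each library in turn.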

Additional observations from a re-analysis of the deposited data

Results flagged for a closer look

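Of 20 groups of liver values tested for a single library far from the rest, 5 were marked. Chance marks about 1 in 20 groups of continuous values, a rate that cannot be applied to Alox15, Ptgs2 and Alox5, whose livers were at or near 0 counts. Ptgs2 stood at 0.662 CPM (12 counts) in CS replicate 1, the next CS liver being at 0.064 CPM. Tbxas1 stood at 4.31 CPM (64 counts) in CS replicate 2, with the next at 1.86 CPM. Alox5 stood at 0.225 CPM (4 counts) in PS replicate 4, with the next at 0.0583 CPM. Alox15 stood at 0.11 CPM (2 counts) in CS replicate 1 and at 1.00 CPM (13 counts) in PS replicate 1, every other liver of those diets being at 0. The lung groups of 3 were too small for this test.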

How the results depend on the processing

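The lung comparison rests on 3 mice per diet, and its count of calls over all genes ran from 0 without CS replicate 3 (3890 genes with an unadjusted p under 0.05, edgeR) to 3090 with DESeq2, against 1542. The count of lung members called went from 0 to 1 with DESeq2 and ranged from 0 to 1 when libraries were left out, the gene being Ltc4s each time. The count of other pathway genes called in the lung, 3, was 1 under limma-trend with either pseudocount, Ptgr2 remaining, and ranged from 0 to 6 with libraries left out, the 6 arising without PS replicate 1 and not including Ptges3. With the GC trend removed Pla2g6 was also lost (log2 fold change 0.56, adjusted p = 0.0736, against 0.76). The lung log2 fold change of Ptgis became -0.13 with the GC trend removed. The counts of liver members and of the difference between tissues stayed at 0 under every alternative run, while all liver genes called ran from 0 to 163 (DESeq2).

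With libraries left out, directions turned for lung Ptgis (-0.13 to 0.20), Tbxas1 (-0.12 to 0.15), Alox5ap (-0.032 to 0.37), Hpgd (-0.30 to 0.083) and Fpr2 (-0.015 to 0.80), for liver Ptgr2 (-0.49 to 0.083) and Fpr2 (-0.028 to 0.56), for the tissue difference of the diet effect of Ptgs2 (-1.61 to 1.95), Alox5 (-1.53 to 1.53) and Alox15 (-4.12 to 4.34), and for Tbxas1 between tissues in CS mice (-0.0047 to 0.66). Liver Fpr2, at 0.17, became -0.14 under limma-trend on log2(FPKM + 0.1), -0.29 with the replicate block and -0.0012 with the GC trend removed. The causes were not tested.

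The labels do not say whether replicate numbers shared between diets mark a common litter or day. Deviations of same-numbered lungs correlated at 0.05, -0.006 and 0.099 and those of livers at -0.358 to -0.029. The replicate block called 0 members in either tissue and gave Ltc4s 0.92 with an adjusted p of 0.0820. With mouse as a replicate block the only member call to change was Tbxas1 between tissues in PS mice. Ptgs2, Alox5 and Alox15 had 0 to 13 counts per liver library and did not pass the low-count filter of the liver comparison.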
